A study of Rattus norvegicus with 6 samples.

Results

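The miRNAs described here were the mature strands of the miR-129, miR-137 and miR-138 families, a set of brain-enriched miRNAs chosen by name. They were rno-miR-129-5p, rno-miR-129-1-3p, rno-miR-129-2-3p, rno-miR-137-3p, rno-miR-137-5p, rno-miR-138-5p, rno-miR-138-1-3p and rno-miR-138-2-3p, which made 8 of the 775 miRNAs listed. All 8 had an entry in the count table, and 7 of them had enough counts to be among the 454 miRNAs tested.

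Small RNA was sequenced from the brains of male Sprague–Dawley rats, 7 weeks old on purchase, in which both common carotid arteries had been ligated (2-vessel occlusion, 2VO), a surgical model of chronic cerebral hypoperfusion and vascular dementia. The 2VO group (3 libraries) received vehicle, 0.5% carboxymethylcellulose sodium at 5 mL/kg, and the tilianin group (3 libraries) received tilianin, a flavonoid glycoside, at 40 mg/kg daily in that vehicle by gastric tube for 4 weeks. Every rat in both groups therefore carried the ligation, and the comparison addressed what tilianin changed on that background, since the sham-operated group was not analysed here. The labels give the tissue as brain, while a legend in the study names cortical tissue, and neither says whether each library came from 1 rat, so that the p-values measure the spread between these libraries, which may be technical.

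MiRNAs are cut from hairpin precursors, from which 2 strands can be released, named 5p and 3p after the arm of the hairpin on which they lie. Usually 1 strand is loaded into Argonaute and guides it to mRNAs that pair with its seed, bases 2 to 8, while the other strand is mostly degraded. MiR-137-3p is known in neurons for limiting dendrite growth and for regulating neuronal maturation and synaptic vesicle genes. MiR-138-5p is found at synapses, where it restrains the growth of dendritic spines through the depalmitoylating enzyme Lypla1 (APT1). MiR-129-5p takes part in the weakening of synapses after sustained activity and represses the potassium channel Kv1.1.

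The mature sequences are shown because the 3 families share no seed and because the bases set which counts can be told apart. They are RefSeq sequences of the rat assembly GRCr8, written 5′ to 3′, with the seed in capitals.
miR-129-5p: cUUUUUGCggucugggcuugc
miR-129-1-3p: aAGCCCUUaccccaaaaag
miR-129-2-3p: aAGCCCUUaccccaaaaagcau
miR-137-3p: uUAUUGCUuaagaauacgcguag
miR-137-5p: aCGGGUAUucuuggguggauaa
miR-138-5p: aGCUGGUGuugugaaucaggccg
miR-138-1-3p: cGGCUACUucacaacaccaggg
miR-138-2-3p: gCUAUUUCacgacaccagggu

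The 2 strands miR-129-1-3p and miR-129-2-3p had the same seed, and no listed miRNA outside the families carried the seed of any of the 8, among the 689 listed miRNAs that matched a RefSeq mature sequence. MiR-129-5p is released from 2 genes, Mir129-1 and Mir129-2, and miR-138-5p from 2 genes, Mir138-1 and Mir138-2, so that their counts could not be divided between the genes. The 3p strands differ between the gene copies, and the difference is shown in capitals.
miR-129-1-3p: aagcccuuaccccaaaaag
miR-129-2-3p: aagcccuuaccccaaaaagCAU
The annotated miR-129-1-3p was 19 bases long and identical to the first 19 bases of miR-129-2-3p, so that a read ending before the last 3 bases could come from either gene. The counts of both strands are therefore uncertain as measures of a single gene. In contrast, miR-138-1-3p and miR-138-2-3p shared a run of 9 bases near the 3′ end, in capitals below, and had different seeds.
miR-138-1-3p: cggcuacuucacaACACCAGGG
miR-138-2-3p: gcuauuucacgACACCAGGGu

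In the GRCr8 annotation the 5 genes lie apart from each other. Mir129-1 is within an lncRNA between Snd1 and Lep, and Mir129-2 is between Hsd17b12 and Ttc17. Mir137 is within an lncRNA between Snx7 and Dpyd. Mir138-1 is within lncRNAs between Abhd5 and Topaz1, and Mir138-2 is inside the span of Slc12a3, next to Nup93. No coordinates are given, since the genome build used by the authors is not given in the sources used here.

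Total counts per library were between 7175872 and 13198776, and 472 to 498 miRNAs had at least 1 count. Tilianin replicate 2 stood apart from the rest, with Spearman correlations across miRNAs of 0.936 to 0.957 with the other 5 libraries, against 0.983 to 0.992 among those 5, and results are therefore given with and without it. The brain markers miR-124-3p, miR-9a-5p and miR-128-3p summed to 126366 to 159150 CPM (counts scaled by library size, after TMM) in the 2VO libraries and to 142044, 83358 and 157212 CPM in tilianin replicates 1, 2 and 3, respectively. The 6 Hox-cluster miRNAs, markers of hindbrain and spinal cord, summed to 90.1 to 151 CPM in the 2VO libraries and to 322, 21745 and 490 CPM in the treated libraries, with 4 of 5 tested members higher by the criterion given below and 1, miR-196b-5p, at 0 in every library. The 4 choroid plexus miRNAs summed to 120 to 152 CPM in 2VO and to 349, 1078 and 123 CPM with tilianin (3 of 4 higher), and the 4 erythroid miRNAs to 155 to 199 CPM and to 406, 881 and 338 CPM (1 of 2 tested higher). Without tilianin replicate 2, 2 Hox-cluster, 1 choroid plexus and 1 erythroid miRNA still met the criterion. These libraries are of bulk tissue, in which fewer cells of a type and less of a miRNA per cell cannot be told apart.

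MiR-129-5p was the most abundant of the strands, followed by miR-137-3p and miR-138-5p. Mean levels in the 2VO group were 916 ± 127 CPM (SD, n = 3) for miR-129-5p, 391 ± 27.9 CPM for miR-137-3p and 226 ± 26.2 CPM for miR-138-5p. Their ranks by mean level over the 6 libraries were 66, 104 and 129 of 775. CPM values were not adjusted for length, but the strands were all 19 to 23 bases long, and differences in ligation between sequences also enter a comparison of levels between miRNAs.

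The remaining strands were less abundant. In the 2VO group, miR-129-1-3p had 78.5 ± 9.31 CPM (SD, n = 3) and miR-138-1-3p had 20.4 ± 2.64 CPM. MiR-129-2-3p had 2.64 ± 0.717 CPM and miR-137-5p had 1.66 ± 0.432 CPM. The latter 2 rested on few reads, 15 to 26 counts per library for miR-129-2-3p and 5 to 24 for miR-137-5p. MiR-138-2-3p had 0 counts in every library, which allows a level of up to 3 counts, or 0.227 to 0.418 CPM by library totals. The reads carried no stated molecular identifiers, so that this limit and the intervals below cover counting error only. The order was the same within each of the 3 2VO libraries. Between libraries of that group the ranges of neighbours in the order were separate, except those of miR-129-2-3p and miR-137-5p, and over all 6 libraries the levels of miR-137-3p and miR-138-5p overlapped as well.

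**Figure D1:**
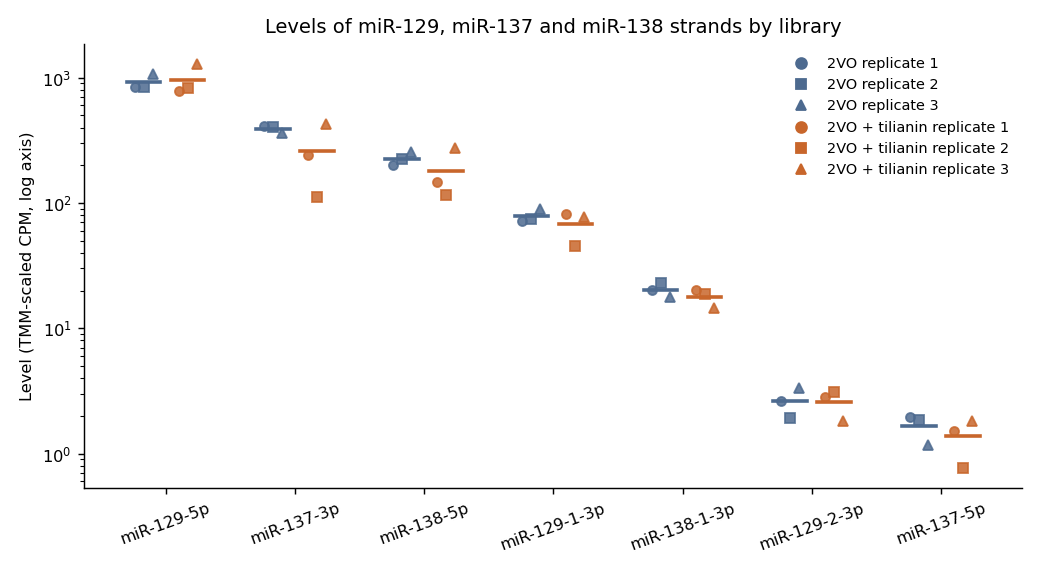
Levels of the 7 detected strands in each library, in CPM after TMM scaling on a log axis, with 2VO and tilianin-treated libraries side by side each marker standing for 1 library and each bar for the mean of 3. The order of the strands is kept across libraries for the most part, and the widest spread on this log axis is that of miR-137-3p in the treated group, from 112 to 426 CPM.

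MiR-137-3p was the strand with the widest range between treated libraries relative to its level. Its level was 408, 407 and 359 CPM in 2VO (replicates 1, 2 and 3, in this order throughout), against 241, 112 and 426 CPM under tilianin. Treated replicates 1 and 2 were below every 2VO library and treated replicate 3 was above every 2VO library, so that the groups overlapped. The mean was 391 ± 27.9 CPM in 2VO and 260 ± 158 CPM with tilianin (SD, n = 3 each). The log2 fold change was −0.59 (standard error 0.440, 95% interval −1.63 to 0.45) with an adjusted p of 0.786 by edgeR's quasi-likelihood test, so that no difference was detectable, and the interval spanned both lower and higher levels.

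MiR-137-5p, the other strand of that hairpin, had 1.96, 1.85 and 1.16 CPM in 2VO, against 1.52, 0.770 and 1.83 CPM under tilianin. The groups overlapped, and the lowest value was again that of tilianin replicate 2, from 5 counts. The log2 fold change was −0.26 (standard error 0.444, 95% interval −1.31 to 0.78, edgeR adjusted p = 0.888).

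MiR-138-5p, the spine-restraining strand, had 201, 224 and 253 CPM in 2VO, against 148, 115 and 276 CPM under tilianin. As with miR-137-3p, treated replicates 1 and 2 were below and treated replicate 3 was above all 2VO libraries. The mean was 226 ± 26.2 CPM in 2VO and 180 ± 84.9 CPM with tilianin (SD, n = 3 each), and the log2 fold change was −0.33 (standard error 0.338, 95% interval −1.13 to 0.47, edgeR adjusted p = 0.839). MiR-138-1-3p, its partner strand, had 20.4, 23.0 and 17.7 CPM in 2VO and 20.2, 18.9 and 14.5 CPM with tilianin. Here treated replicate 3 was the lowest library rather than the highest, and the log2 fold change was −0.19 (standard error 0.222, 95% interval −0.71 to 0.34, edgeR adjusted p = 0.861).

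MiR-129-5p had 839, 847 and 1063 CPM in 2VO, against 789, 827 and 1281 CPM under tilianin. Replicates 1 and 2 of the treated group were again lowest and replicate 3 highest, but the highest was a smaller multiple of the lowest than for miR-137-3p or miR-138-5p. The means were 916 ± 127 and 966 ± 273 CPM (SD, n = 3 each), with a log2 fold change of 0.08 (standard error 0.254, 95% interval −0.52 to 0.67, edgeR adjusted p = 0.934).

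The 3p strands of miR-129 gave different orders. MiR-129-1-3p had 71.4, 75.0 and 89.0 CPM in 2VO and 81.9, 45.6 and 77.8 CPM with tilianin, and tilianin replicate 2 was the lowest library. Its log2 fold change was −0.20 (standard error 0.261, 95% interval −0.81 to 0.42, edgeR adjusted p = 0.861). MiR-129-2-3p had 2.62, 1.93 and 3.36 CPM in 2VO and 2.82, 3.08 and 1.83 CPM with tilianin, for a log2 fold change of −0.02 (standard error 0.365, 95% interval −0.89 to 0.84, edgeR adjusted p = 0.977). In neither strand were the groups separate.

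**Figure D2:**
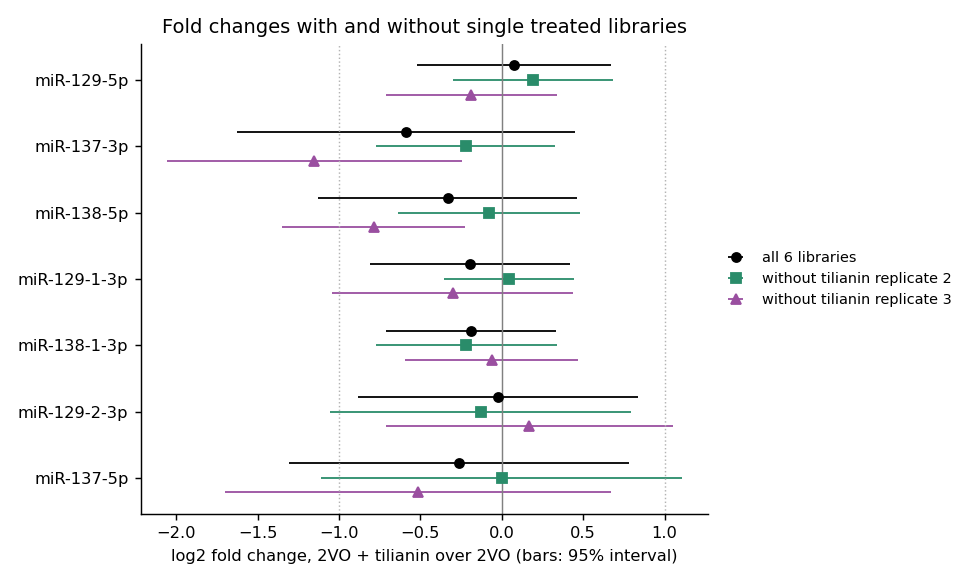
Log2 fold changes, tilianin over 2VO, of the 7 tested strands with 95% intervals of the edgeR fit, for all 6 libraries and with tilianin replicate 2 or 3 left out. Every interval with all libraries spans 0, and the estimate for miR-137-3p moves from −0.59 to −0.22 when replicate 2 is left out.

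Calls used the study's criterion, an unadjusted p below 0.05 with an absolute log2 fold change above 1. None of the 7 strands met it in either direction, where 4.63% of the 454 tested miRNAs were higher and 1.1% were lower with tilianin. None of the 7 reached an unadjusted p below 0.05 by edgeR, DESeq2 or limma-voom, and none passed an adjusted p of 0.05 by any of these tools. Over all 454 miRNAs, 33 reached an unadjusted p below 0.05 by edgeR, 29 by DESeq2 and 17 by limma-voom, of which 0, 3 and 0 passed an adjusted p of 0.05. The groups overlapped for 7 of 7 strands, whereas treated libraries were all above the 2VO libraries for 5.51% of the miRNAs tested and all below them for 4.19%. Of the 7 estimates 6 were below 0, with a median of −0.20, against 242 of 454 and a median of −0.03 over all tested miRNAs. Without tilianin replicate 2, 4 of the 7 were below 0, with a median of −0.08, against 214 of 445 and a median of 0.01 over all tested miRNAs.

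Leaving out single treated libraries moved miR-137-3p and miR-138-5p the most. Without tilianin replicate 2, the log2 fold change of miR-137-3p was −0.22 (95% interval −0.77 to 0.33) and that of miR-138-5p was −0.08, and no strand met the criterion, against 2.02% of miRNAs higher and 0.899% lower in that comparison. Without tilianin replicate 3, miR-137-3p was at −1.15 (standard error 0.364, 95% interval −2.06 to −0.24) and met the criterion as lower with tilianin, with an edgeR adjusted p of 0.300. In that comparison 5.58% of miRNAs were called higher and 0.893% lower. MiR-138-5p was then at −0.79 with an edgeR adjusted p of 0.300, which did not reach the fold threshold. The estimate for miR-137-3p thus moved with which treated library was left out.

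The spread within the treated group differed between the strands. The coefficient of variation of miR-137-3p was 7.14% in the 2VO group and 60.7% in the treated group, and that of miR-138-5p was 11.6% and 47.3%. In the treated group it was 39.7% for miR-137-5p, 29.1% for miR-129-1-3p, 28.3% for miR-129-5p, 25.6% for miR-129-2-3p and 16.7% for miR-138-1-3p. Over the 269 miRNAs with a mean of at least 10 CPM, the median was 11.6% in 2VO and 25.6% with tilianin. The other 5 strands thus ranged from below to above the treated median. Of these 5, miR-129-2-3p and miR-137-5p had means below 10 CPM, rested on few counts and were outside the 269 miRNAs. MiR-137-3p was below the 2VO median and far above the treated median. Of the 269 miRNAs, 28 (10.4%) had a larger treated coefficient of variation than miR-137-3p.

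Expressed as a percentage of the mean 2VO level, miR-137-3p stood at 61.6, 28.7 and 109% in treated replicates 1, 2 and 3. MiR-138-5p stood at 65.5, 50.8 and 122%, and miR-129-5p at 86.1, 90.2 and 140%. All 3 leading strands had treated replicates 1 and 2 below every 2VO library and treated replicate 3 above every 2VO library, an arrangement found for 12 of the 269 miRNAs (4.46%). The other 9 were let-7e-5p, miR-9a-5p, miR-103-3p, miR-107-3p, miR-124-5p, miR-127-5p, miR-148b-3p, miR-322-5p and miR-341. This arrangement was noticed after the values were seen, and no test was run on it.

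**Figure D3:**
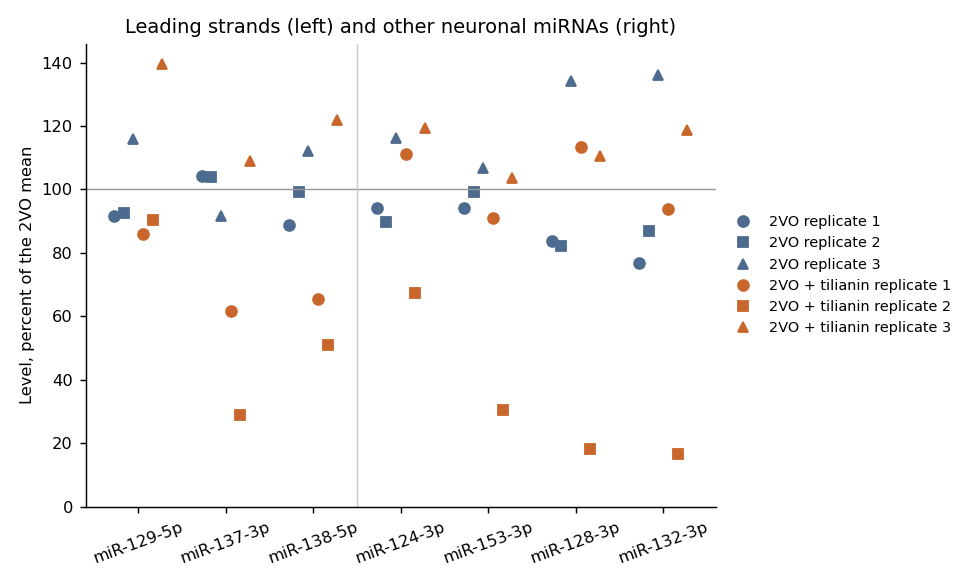
Level in each library as a percentage of the mean of the 3 2VO libraries, for the leading strands and for other neuronal miRNAs. In treated replicate 1, miR-137-3p (61.6%) and miR-138-5p (65.5%) lie below the 2VO libraries while miR-128-3p (113%) and miR-132-3p (93.9%) lie within them. MiR-153-3p (91.2%) also lies below them in treated replicate 1, as does miR-9a-5p (75.0%), which is not plotted. In treated replicate 2, miR-128-3p (18.2%) and miR-132-3p (16.6%) are the lowest of the 7 miRNAs plotted.

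Treated replicate 2 was the lowest of the 6 libraries for 4 of the 7 strands, where it was the lowest for 33.3% of all tested miRNAs. Its level as a percentage of the mean of the other 5 libraries was 30.5% for miR-137-3p, 46.2% for miR-137-5p and 52.1% for miR-138-5p. It was 57.7% for miR-129-1-3p and 85.8% for miR-129-5p. MiR-138-1-3p and miR-129-2-3p were not low in it, at 98.8% and 123%. On the log2(CPM + 1) scale, miR-137-3p was 1 of the 7 strands (at −1.67) that lay more than 1 unit below the mean of the other libraries, as did 10.8% of all tested miRNAs. The Hox-cluster, choroid plexus and erythroid sums given above were highest in the same library, and the part of that library's composition in these levels was not tested.

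A list of 27 other neuronal and synaptic miRNAs was read in the same way. None of the 27 met the criterion in either direction, with or without treated replicate 2, and none reached an unadjusted p below 0.05 by edgeR. Their median log2 fold change was −0.16 with all libraries, with 20 of 27 below 0, and −0.01 without replicate 2, with 14 of 27 below 0. Over all tested miRNAs, 242 of 454 were below 0 with all libraries and 214 of 445 without replicate 2. Replicate 2 was the lowest library for 17 of the 27, against 33.3% of all tested miRNAs. It lay more than 1 log2 unit below the mean of the others for 8 of the 27, against 10.8% of all tested miRNAs. The largest departures were those of miR-132-5p (−2.69), miR-132-3p (−2.58), miR-128-3p (−2.50) and miR-212-3p (−2.50), of which miR-132 and miR-212 are induced by neuronal activity through CREB. MiR-34a-5p, a p53-induced miRNA, departed upwards by 2.78. MiR-137-3p, at −1.67, was close to miR-153-3p (−1.70), another miRNA of synaptic vesicle genes.

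**Figure D4:**
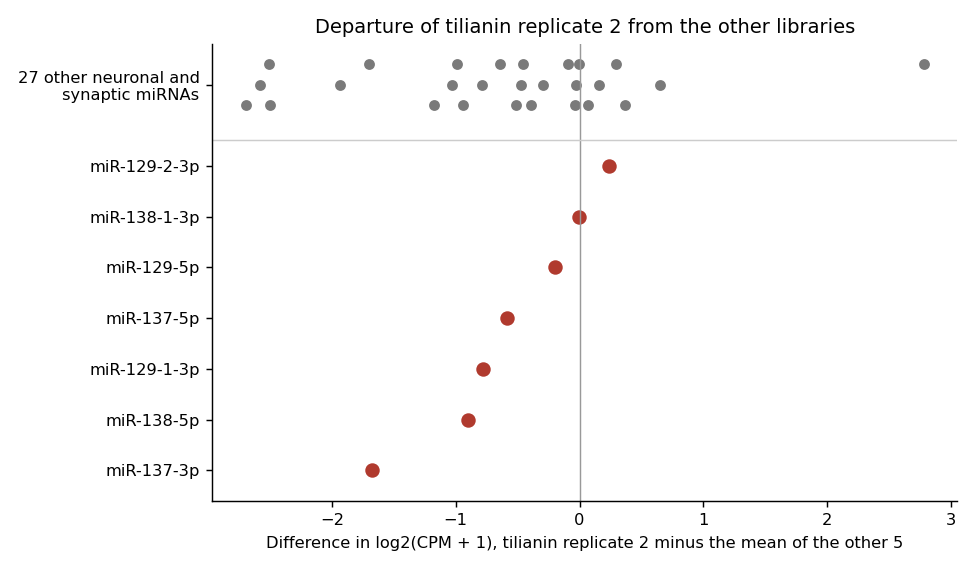
Difference in log2(CPM + 1) between tilianin replicate 2 and the mean of the other 5 libraries, for the 7 tested strands (red, named) and 27 other neuronal and synaptic miRNAs (grey, 1 point each, spread vertically for visibility). MiR-137-3p lies at −1.67, and the grey points run from −2.69 (miR-132-5p) to 2.78 (miR-34a-5p).

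Treated replicate 1 was low for some strands and for some, but not all, of the other neuronal miRNAs. MiR-137-3p and miR-138-5p were below all 2VO libraries in it. MiR-128-3p had 113% and miR-132-3p 93.9% of the mean 2VO level, within the range of the 2VO libraries. MiR-9a-5p, at 75.0%, was below every 2VO library, and so were miR-218a-5p and miR-410-3p. Of the 7 strands, 3 were below every 2VO library in treated replicate 1, 5 in replicate 2 and 2 in replicate 3, where the shares of all 454 tested miRNAs were 27.1%, 38.8% and 22.5%. Of the 27 miRNAs of the neuronal list the numbers were 9, 18 and 6. No test was run on these counts. In replicate 1 the erythroid (nearly all miR-486), choroid plexus and Hox-cluster sums were above the 2VO range, at 406, 349 and 322 CPM. In replicate 3 the erythroid and Hox-cluster sums were above it as well, at 338 and 490 CPM. The part of these sums in the levels of the strands was not tested.

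The remaining marker lists had at most 1 called member each. Among the microglia and leukocyte miRNAs 1 of 6 was higher by the criterion, with sums of 776 to 1163 CPM in 2VO and of 1121, 1403 and 998 CPM with tilianin. None of the 2 tested oligodendrocyte miRNAs or the 2 endothelial miRNAs met it. Muscle (1 of 3 tested) and mural and mesenchymal miRNAs (1 of 4 tested) each had 1 higher member, and 1 of 2 tested pituitary miRNAs was lower. Of all 454 tested miRNAs, 4.63% were higher and 1.1% were lower. The lower pituitary miRNA was miR-7b, and miR-375-3p of that list had 0 counts in every library. The muscle sum was 88.5 to 131 CPM in 2VO and highest in treated replicate 2, at 492 CPM. Without that library, 0 microglia and leukocyte and 0 muscle miRNAs met the criterion, while the mural and pituitary counts stayed at 1.

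The balance of the strands of each hairpin was compared next, since it does not depend on the scaling of the libraries. MiR-137-3p made up 99.3 to 99.7% of the miR-137 counts in each library, with the exact binomial 95% interval in treated replicate 2, the library with the fewest counts, running from 98.4 to 99.8%. MiR-129-5p made up 90.3 to 94.4% of the miR-129 counts and miR-138-5p at least 85.8% of the miR-138 counts. Each family thus kept the same leading strand in all 6 libraries, which for miR-129 and miR-138 does not show the balance at each gene. Of the counts given to both 3p strands of miR-129, 2.30 to 6.33% carried the longer name miR-129-2-3p.

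The ratio of miR-129-5p to miR-129-1-3p counts was 11.8, 11.3 and 11.9 in the 2VO libraries and 9.64, 18.1 and 16.5 in the treated libraries. The 2VO libraries were nearly equal and the treated libraries lay on both sides of them. The difference in log2 ratio, tilianin minus 2VO, was 0.29 (two-sided exact permutation p = 0.4, adjusted over the 4 hairpin ratios p = 0.8). The ratio of miR-129-5p to miR-129-2-3p was 321, 439 and 316 in 2VO and 280, 268 and 699 with tilianin, for a log2 difference of 0.07 (exact permutation p = 1). Because miR-129-5p comes from both genes, these are not ratios within 1 hairpin.

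The ratio of miR-137-3p to miR-137-5p was 208, 220 and 308 in the 2VO libraries and 158, 146 and 233 in the treated libraries, with treated replicates 1 and 2 below every 2VO library and replicate 3 among them. MiR-137-5p had only 5 to 24 counts per library, so that a few reads could change this order. On the log2 scale with a pseudocount of 0.5, the 5p over 3p ratio differed by 0.49 (exact permutation p = 0.3, adjusted p = 0.8). The ratio of miR-138-5p to miR-138-1-3p was 9.86, 9.73 and 14.3 in 2VO and 7.33, 6.07 and 19.0 with tilianin, a difference of −0.23 on the log2 scale (exact permutation p = 0.6, adjusted p = 0.8). The smallest p that 3 libraries against 3 can give is 0.1, so that no ratio could have passed 0.05.

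**Figure D5:**
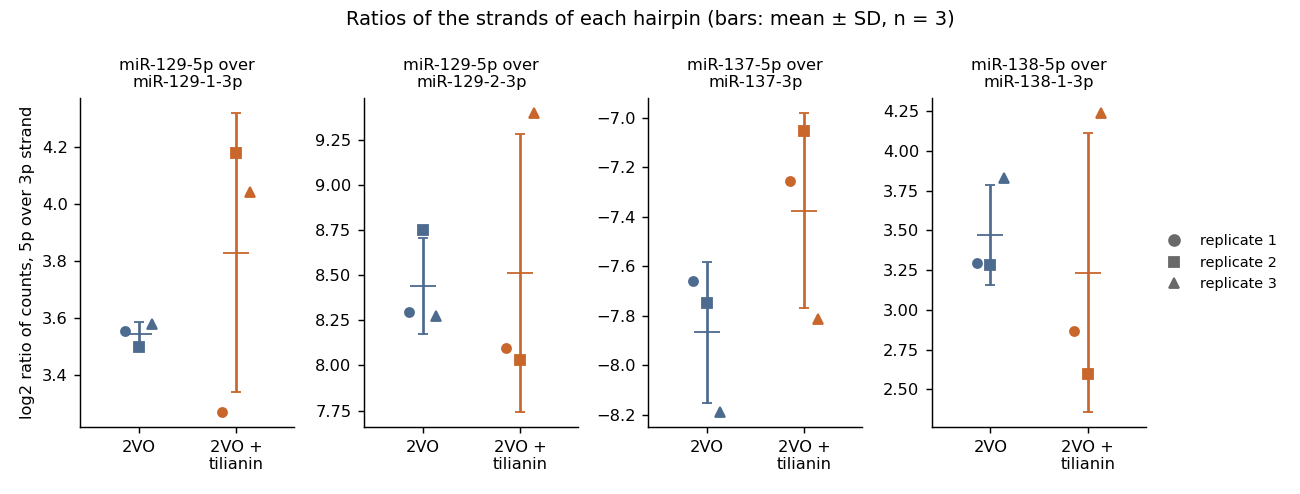
Log2 ratio of the counts of the 5p strand over the 3p strand (pseudocount 0.5) in each library, with circles, squares and triangles for replicates 1, 2 and 3 and bars for the mean ± SD (n = 3). Each panel has its own axis, and the 2 groups overlap in all 4.

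Summed over strands, the miR-129 family had 998 ± 137 CPM in 2VO and 1037 ± 280 CPM with tilianin (SD, n = 3 each), a log2 difference of 0.03 (exact permutation p = 1). The miR-137 strands had 393 ± 28.4 and 261 ± 158 CPM, a log2 difference of −0.78 (exact permutation p = 0.4, adjusted over the 3 families p = 0.6). These differences are between means of log2 values per library. They are therefore not on the same measure as the edgeR fold changes, such as −0.59 for miR-137-3p, which made up nearly all of the miR-137 sum. The miR-138 strands had 246 ± 24.8 and 197 ± 82.1 CPM, a log2 difference of −0.39 (exact permutation p = 0.4, adjusted p = 0.6). With a smallest possible p of 0.1, none of these differences could have passed 0.05, and differences between the families were not tested. Without treated replicate 2 the log2 differences were −0.28 for miR-137 and −0.15 for miR-138, and without treated replicate 3 they were −1.24 and −0.71.

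The leading strands were also read against each other within each library. The ratio of miR-129-5p to miR-137-3p was 2.06, 2.08 and 2.96 in the 2VO libraries and 3.27, 7.35 and 3.01 in the treated libraries. That of miR-129-5p to miR-138-5p was 4.18, 3.78 and 4.20 in 2VO and 5.33, 7.20 and 4.65 with tilianin. In both ratios every treated library was above every 2VO library, by a small margin between treated replicate 3 and 2VO replicate 3 for miR-137-3p (3.01 against 2.96). Both ratios share the numerator miR-129-5p, and how often ratios of other miRNAs separate the groups was not counted. The ratio of miR-137-3p to miR-138-5p, 2.03, 1.82 and 1.42 in 2VO and 1.63, 0.979 and 1.55 with tilianin, overlapped. These ratios were chosen after the levels were seen and are given with no test.

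Among the members, the levels of miR-137-3p and miR-138-5p had the highest correlation over the 6 libraries (Pearson r of log2(CPM + 1) = 0.91). Without treated replicate 2 it was 0.83, and that of miR-129-5p with miR-138-5p was 0.84. MiR-129-5p and miR-138-1-3p went in opposite directions (r = −0.88, and −0.92 without that library). The correlations are descriptive, since the libraries share the count scaling and a difference between 2 groups, and they are few.

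Of 264 other miRNAs with a mean of at least 10 CPM, those most like miR-137-3p over the 6 libraries were miR-377-3p (r = 0.98), miR-410-3p (r = 0.97) and miR-541-3p (r = 0.97). MiR-377-3p had 184, 195 and 170 CPM in 2VO and 138, 88.1 and 165 CPM with tilianin, so that its range was narrower than that of miR-137-3p. For miR-138-5p they were miR-127-5p (r = 0.98), miR-369-5p (r = 0.96) and miR-124-5p (r = 0.95), of which miR-127-5p had 91.0, 85.7 and 95.1 CPM in 2VO and 61.8, 47.0 and 108 CPM with tilianin. For miR-129-5p they were miR-134-3p (r = 0.92), miR-154-3p (r = 0.90) and miR-490-3p (r = 0.88), of which miR-490-3p had 120, 98.1 and 176 CPM in 2VO and 115, 94.6 and 179 CPM with tilianin. For miR-490-3p replicate 3 was the highest library in each group, but the replicate numbers are not known to pair the samples.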

How the data were processed

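Small RNA of brain tissue was sequenced by the authors, and the deposited table holds their raw counts per mature miRNA and library. The submitters' processing notes name FastQC 0.11.2, Trimmomatic 0.36, cutadapt 1.14 and DESeq2 1.12.4. The aligner, miRNA reference, genome build and counting program are not given in the sources used here. Columns were matched to samples by the library codes in the labels.

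MiRNAs with at least 10 counts in total (454 of 775) entered the analysis. TMM scaling and a quasi-likelihood test of tilianin against 2VO were done in edgeR 4.0.16 under R 4.3.3 (alternatives in DESeq2 1.42.0 and limma 3.58.1), with group as the single term and Benjamini-Hochberg adjustment over all tested miRNAs. The thresholds, p below 0.05 and absolute log2 fold change above 1, are those of the study's methods. Standard errors and 95% intervals came from each F statistic with its fold change and are approximate. Strand ratios and family sums were tested between groups by exact two-sided permutation (scipy 1.17.1, Python 3.11.15), as log2 of counts plus 0.5 and log2 of summed CPM plus 1. Figures were drawn with matplotlib 3.10.9. The quasi-likelihood test was checked on simulated counts.

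Every member was named. Other miRNAs were named where they belonged to the neuronal list or a marker list, shared a seed, or were among the 3 most alike to a leading strand with a mean of at least 10 CPM. The 9 miRNAs that shared the arrangement of treated libraries were named after their values were seen. The members and lists were chosen with earlier results of these data known. Alternatives were DESeq2's size factors, library totals, DESeq2's Wald test, limma-voom, robust dispersion, other filters, prior counts and pseudocounts, a replicate block and leaving out each library. The sham libraries and other assays of the study were not analysed here.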

Additional observations from a re-analysis of the deposited data

How the results depend on the processing

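No setting other than leaving out a library changed a call of the strands. In those other settings, the reversed estimates were near 0. MiR-129-2-3p was at 0.0125 with limma-voom and at 0.00638 with edgeR's own filter, and the summed miR-129 level was at −0.0360 with library totals. With 1 library left out, log2 fold changes ran from −0.19 to 0.23 for miR-129-5p, from −0.32 to 0.0464 for miR-129-1-3p, from −0.17 to 0.18 for miR-129-2-3p and from −0.51 to 0.00111 for miR-137-5p. They ran from −1.15 to −0.22 for miR-137-3p and from −0.79 to −0.08 for miR-138-5p, with the lower end without tilianin replicate 3 and the upper end without tilianin replicate 2. The number of strands lower by the criterion ran from 0 to 1, miR-137-3p passing without tilianin replicate 3. The difference in log2 strand ratio ran from −0.37 to 0.31 for miR-129-2 and from −0.74 to 0.0849 for miR-138-1, and the summed miR-129 level from −0.18 to 0.14. The miR-129-1 ratio ran from 0.11 (without tilianin replicate 2) to 0.57 (without tilianin replicate 1), the miR-137 ratio from 0.33 to 0.71, and miR-138-1-3p from −0.29 (without 2VO replicate 3) to −0.0550 (without 2VO replicate 2). The summed level ran from −1.24 to −0.28 for miR-137 and from −0.71 to −0.15 for miR-138. The cause was not tested.

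The deviations of same-numbered libraries had correlations of −0.12, 0.01 and 0.30 for numbers 1, 2 and 3. Only 1 of 3 2VO libraries correlated best with its own number. No pairing is given in the labels, and with 3 libraries a group these values cannot exclude one. With the replicate block, miR-137-3p was at −0.79 (edgeR adjusted p = 0.735), miR-138-5p at −0.43 and miR-129-5p at 0.05, and 0 strands met the criterion. The neuronal list without tilianin replicate 2 was an alternative chosen after seeing the data. Depth limited miR-129-2-3p, miR-137-5p and miR-138-2-3p.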
